A study of Mus musculus with 9 samples.

Results

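The comparison set total smooth muscle cells of the mouse lung against bronchial smooth muscle cells, over all genes of the deposited table. It used 6 of the 9 RNA-seq libraries of the series, 3 labelled as pulmonary smooth muscle cells (total_SMC) and 3 labelled as bronchial smooth muscle cells (BSMC), chosen by their labels. The total_SMC cells, with those of the veins included, carried the tg-Acta2-GFP transgene, a green fluorescent protein (GFP) driven by the promoter of smooth muscle alpha-actin. The BSMC cells came from NVSMC-effector mice of genotype Chrm2/Acta2-CreER/R26-GFP, in which a tamoxifen-activated recombinase and the muscarinic receptor gene Chrm2 are part of the genotype and the GFP reporter sits at the Rosa26 locus. All libraries carry the treatment label tamoxifen, which the protocol gives, for activating CreER, as 0.75 mg per 10 g body weight on 3 days from a 20 mg/mL solution in corn oil. The genotype of the total_SMC mice names no CreER, and whether they were injected is not clear from the labels, so tamoxifen may also differ between the groups. Ages, strains and sexes of the mice are not given in the sources used here, nor whether each library came from its own animal, so p-values measure the spread between libraries only. Cells were isolated by fluorescence-activated sorting, and at most 10 ng of RNA per library entered a SMART-Seq v4 full-length cDNA preparation. The remaining 3 libraries are of pulmonary arterial smooth muscle cells (PASMC, genotype Cspg4/Acta2-CreER/R26-GFP). They entered only an alternative fit of all 9 libraries, and are otherwise given side by side for some genes and lists. Cell population, mouse line and sort changed together between the groups and cannot be told apart.

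Airway smooth muscle rings the bronchi and sets their calibre. Vascular smooth muscle of arteries and veins sets vessel tone. Both share a contractile apparatus of smooth muscle actin, smooth muscle myosin and their regulators, much of it transcribed through serum response factor (SRF) and its cofactor myocardin, while Acta2 is also active in lung myofibroblasts and some pericytes. In the lung, Hedgehog ligands from the epithelium signal to neighbouring mesenchyme through the receptor Patched and the Gli transcription factors, and fibroblasts, mesothelium and endothelium contribute much of the matrix around the muscle.

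The depth implied by the spacing of the deposited normalized read counts was 7.14, 9.33 and 6.39 M (mega) reads in BSMC replicates 1 to 3, and 9.90, 9.79 and 8.93 M reads in the total_SMC replicates. Between 17983 and 18942 genes had a value above 0 in a BSMC library, against 19240 to 19954 in a total_SMC library. The BSMC libraries differed more among themselves (root mean square log2 difference 0.902 to 1.02) than the total_SMC libraries did (0.446 to 0.515), and both were closer within a group than across groups (1.28 to 1.67). BSMC replicate 2 was the BSMC library nearest to the total_SMC libraries. In bulk samples such as these, fewer cells of a type and less RNA per cell cannot be told apart.

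More genes were higher than lower in total_SMC. Of 15019 genes tested with limma, 5427 (36.1%) had a Benjamini-Hochberg adjusted p under 0.05, of which 3179 (21.2% of the genes tested) were higher in total_SMC and 2248 (15.0%) were lower. At least a 2-fold difference was called for 3393 genes (22.6%), 2148 of them higher (14.3%) and 1245 lower (8.29%). The 3 libraries of one group lay entirely above the 3 of the other for 7775 genes (51.8%), with total_SMC above in 4103 (27.3%) and below in 3672 (24.4%). The direction of the balance depended on scaling: 58.6% of the called genes were higher as deposited, against 44.0% after scaling to equal library totals, 45.3% after quantile normalization and 68.6% of 3628 called genes on the implied reads without scaling. The median log2 fold change over all tested genes was 0.05 as deposited, and these scalings moved it to -0.11, -0.08 and 0.23. The number called fell to 3501, 3466 and 3123 without total_SMC replicate 1, 2 or 3, respectively. At the highest abundance, 221 of the tested genes carried at least 1 implied read per base of their exons, and 45 of these (20.4%) were called. Counts of the gene lists below stand against 21.2% higher and 15.0% lower over all genes tested.

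**Figure D1:**
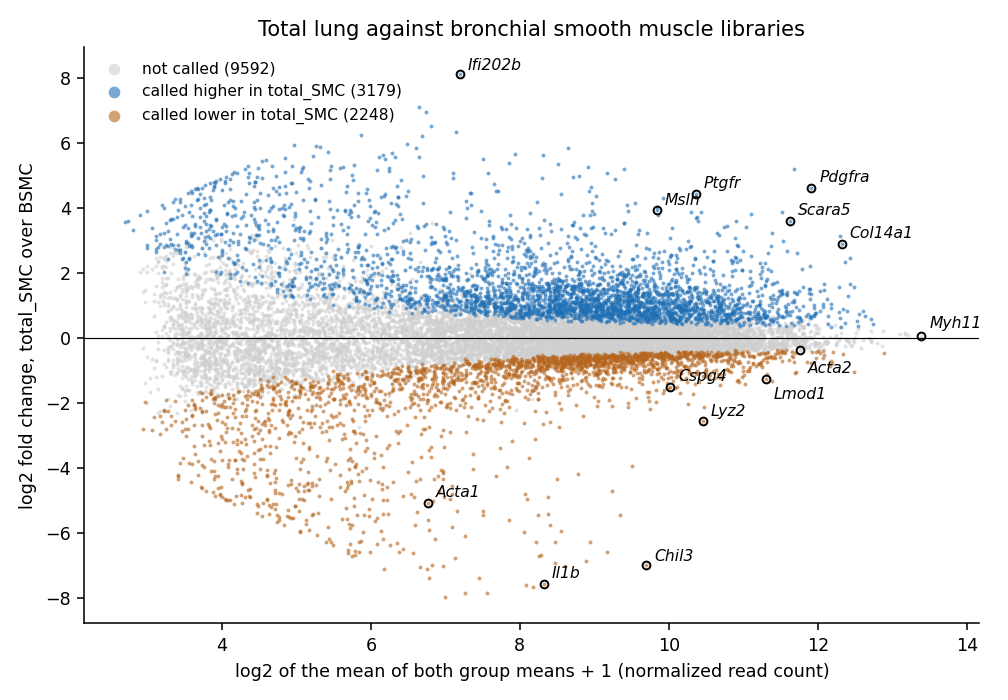
Each point is one of the 15019 tested genes, with the log2 of the mean of both group means plus 1 on the horizontal axis and the log2 fold change of total_SMC over BSMC on the vertical axis. Blue points are called higher in total_SMC (3179), brown points lower (2248). Ifi202b and Pdgfra lie near the top, Il1b and Chil3 near the bottom, and the abundant muscle gene Myh11 close to 0.

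The genes named in the genotypes were examined first. Acta2, whose promoter drives the transgene or the recombinase (chr19:34218490-34232990, minus strand, mm39), had normalized read counts of 4038, 3280 and 4526 in BSMC and 3065, 2892 and 3094 in total_SMC. All 3 total_SMC libraries lay below the BSMC libraries, but the difference did not pass the test (log2 fold change -0.38 ± 0.14 SE, limma adjusted p = 0.0599), and Acta2 carried over 1 implied read per exonic base. This call was close to the threshold. Acta2 was called lower without BSMC replicate 2 (adjusted p = 0.00666, log2 fold change -0.50), with all 9 libraries in 1 limma fit (0.0275), with array weights (0.0214), with the replicate block (0.0474), and after quantile (0.00697), cyclic loess (0.0216) or total scaling (0.0136). It was not called with any other library left out, and its log2 fold change was -0.059 with the exon-length trend described further on removed (adjusted p = 0.689). Chrm2, the M2 muscarinic receptor named in the BSMC genotype, had 155, 223 and 115 in BSMC and 240, 324 and 351 in total_SMC. It was therefore higher in the line that does not carry the Chrm2 allele (log2 fold change 0.92 ± 0.28, adjusted p = 0.0294). The difference no longer passed when one of 4 libraries was left out, namely replicate 1 of BSMC (adjusted p = 0.0703), replicate 3 of BSMC (0.0669), replicate 2 of total_SMC (0.102) or replicate 3 of total_SMC (0.124), nor in a plain empirical Bayes fit (0.0585). Chrm3, the M3 receptor, had at most 8 in any of the 6 libraries and was not tested.

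Cspg4, a proteoglycan of pericytes and arterial muscle, was lower in total_SMC, with 1296, 1469 and 1778 in BSMC against 585, 750 and 331. The groups did not overlap (log2 fold change -1.51 ± 0.28, adjusted p = 0.00272), and the PASMC libraries had 1958, 1658 and 2393. The Rosa26 transcript Gt(ROSA)26Sor, at the locus that holds the GFP reporter in the BSMC and PASMC lines, had 890, 771 and 650 in BSMC and 600, 832 and 794 in PASMC. It had 95, 147 and 207 in total_SMC, whose genotype names no Rosa26 allele (log2 fold change -2.41 ± 0.28, adjusted p = 0.000225). Both Y-linked genes Ddx3y and Eif2s3y were present in all 6 libraries, at 1159 to 3549 and 451 to 2276. Eif2s3y, a subunit of a translation initiation factor, was lower in total_SMC (log2 fold change -1.74 ± 0.22, adjusted p = 0.00034).

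Contractile genes were abundant in both groups, and those called different were lower in total_SMC. Of the 33 contractile genes tested, 14 were called lower and 0 higher, against 15.0% and 21.2% of all genes, with a median log2 fold change of -0.37. Smooth muscle myosin heavy chain Myh11 had 9171, 11404 and 11032 in BSMC and 10351, 10055 and 12375 in total_SMC. These groups overlapped (log2 fold change 0.05 ± 0.13, adjusted p = 0.757). Leiomodin 1 (Lmod1), which nucleates actin filaments in smooth muscle, had 3430, 3668 and 3573 in BSMC and 1446, 1267 and 1750 in total_SMC. Its groups were far apart (log2 fold change -1.27 ± 0.15, adjusted p = 0.000196). Kcnmb1, the smooth muscle beta subunit of the large-conductance calcium-activated potassium channel, had 2873, 2863 and 2548 against 1139, 979 and 1200 (log2 fold change -1.32 ± 0.14, adjusted p = 0.000119). The actin crosslinker Actn1 showed 2638, 2971 and 2848 against 1290, 919 and 1151 (log2 fold change -1.34 ± 0.16, adjusted p = 0.000207). Ppp1r12a, the targeting subunit of myosin phosphatase, went from 4683, 4432 and 4418 in BSMC to 1995, 1997 and 2367 (log2 fold change -1.09 ± 0.12, adjusted p = 0.000175). Tagln, the actin-binding protein SM22, was lower as well, from 571 ± 96.1 (SD, n = 3) to 279 ± 40.9 (adjusted p = 0.00405).

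The summed contractile list stood at 15084 ± 1025 CPM in BSMC (normalized counts scaled to a library total of 1000000) and 11327 ± 775 in total_SMC (SD, n = 3), with PASMC at 15197 ± 751. In the list, 10 genes carried at least 1 implied read per exonic base, among them Acta2, Actg2, Myh11, Myl9 and Des, and of these 10 only Cnn2 was called. The number called lower was 23 without BSMC replicate 2 and 9 without total_SMC replicate 2. After scaling to equal library totals 23 members were lower, and on implied reads without scaling 9 were lower and 2 higher. The SRF group, 20 transcription factors of muscle, had 6 lower and 2 higher in total_SMC. That is 30% and 10%, against 15.0% and 21.2% of all genes tested. Without total_SMC replicate 1 or 3 the group had 1 lower, and without total_SMC replicate 2 it had 3 lower. Its most different member was the homeobox factor Meox2, higher in total_SMC at 1833, 1985 and 1950 against 186, 198 and 169 in BSMC (log2 fold change 3.38 ± 0.16, adjusted p = 1.73e-06). The Notch effector Hey2 was lower, at 665 ± 102 in BSMC against 303 ± 28.0 in total_SMC (log2 fold change -1.12 ± 0.19, adjusted p = 0.00162).

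Because contractile genes are classical SRF targets, the RefSeq promoter windows of the list (GRCm38.p6, 250 bases before to 50 after each transcript start) were searched on both strands for the SRF-binding CArG box. It was present in 6 of 35 windows (17.1%), matched to 29 of the 33 genes, against 1.63% of all 32851 windows. The 6 windows belong to 5 genes, of which Cnn2, Ldb3 and Myl6 were called lower in total_SMC while Myl9 and Vcl were not called. The windows of the 3 called genes are shown with the CArG box in capitals: Cnn2 (chr10:79988350-79988649, plus strand), a calponin that binds actin, Ldb3 (chr14:34588558-34588857, minus strand), a Z-disc protein, and Myl6 (chr10:128492960-128493259, minus strand), the essential myosin light chain of smooth muscle.
Cnn2: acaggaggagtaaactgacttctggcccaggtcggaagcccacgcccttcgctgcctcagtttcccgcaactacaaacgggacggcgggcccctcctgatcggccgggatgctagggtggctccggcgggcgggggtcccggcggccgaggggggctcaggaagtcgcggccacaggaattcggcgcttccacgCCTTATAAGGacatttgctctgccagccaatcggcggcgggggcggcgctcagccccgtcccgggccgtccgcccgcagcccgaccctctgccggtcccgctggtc
Ldb3: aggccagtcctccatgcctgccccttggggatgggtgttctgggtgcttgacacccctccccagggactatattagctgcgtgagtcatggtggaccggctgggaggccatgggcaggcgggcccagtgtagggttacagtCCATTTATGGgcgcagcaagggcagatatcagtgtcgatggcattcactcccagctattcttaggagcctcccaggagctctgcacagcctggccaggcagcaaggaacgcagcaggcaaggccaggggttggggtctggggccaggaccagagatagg
Myl6: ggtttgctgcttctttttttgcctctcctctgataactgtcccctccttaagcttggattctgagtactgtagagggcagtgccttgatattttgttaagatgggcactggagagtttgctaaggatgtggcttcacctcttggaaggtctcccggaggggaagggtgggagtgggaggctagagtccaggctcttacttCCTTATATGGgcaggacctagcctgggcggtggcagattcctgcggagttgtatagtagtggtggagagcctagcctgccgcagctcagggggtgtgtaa
The boxes start 56, 109 and 50 bases before the transcript start in these windows. The log2 fold changes of the 3 genes were -0.42, -1.04 and -0.84. A match describes the letters of the window and is not evidence of binding, and a window without one shows only that these letters are not in it.

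Genes of arterial muscle were mostly lower in total_SMC, although that population holds the arteries by its label. Of 21 arterial and vascular genes tested, 12 were lower and 2 higher (median log2 fold change -0.78), and their sum fell from 4492 ± 71.6 to 2937 ± 71.5 CPM. The sum in PASMC was 4522 ± 86.7 CPM, close to that in BSMC, so this list did not separate the arterial from the bronchial libraries. Ppp1r1b, the phosphatase inhibitor DARPP-32, had 460, 389 and 431 in BSMC and 43, 41 and 56 in total_SMC. No library of one group came near the other (log2 fold change -3.18 ± 0.24, adjusted p = 1.91e-05), and the PASMC libraries had 432, 524 and 502. The neurotrophin receptor Ntrk3 was lower too, at 1381, 1388 and 1192 against 532, 532 and 514 (log2 fold change -1.32 ± 0.15, adjusted p = 0.000173). The 2 exceptions, higher in total_SMC, were the endothelial and arterial connexin Gja5 (230 ± 64.4 against 667 ± 47.5, log2 fold change 1.57 ± 0.24, adjusted p = 0.000877) and the Notch ligand Jag1 (247 ± 33.6 against 676 ± 126, log2 fold change 1.44 ± 0.20, adjusted p = 0.000618).

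Airway smooth muscle genes moved both ways. Of 16 tested, 5 were higher and 4 lower in total_SMC (31.25% and 25%, against 21.2% and 15.0% of all genes tested). The median log2 fold change was -0.09 and the mean 0.07. With total_SMC replicate 2, total_SMC replicate 3 or BSMC replicate 1 left out only 2 were higher, against 3 without BSMC replicate 3. The summed list was highest in PASMC, at 3532 ± 32.9 CPM, against 2614 ± 153 in BSMC and 2378 ± 70.6 in total_SMC. Lgr6, a receptor of R-spondins that marks airway smooth muscle, had 2088, 2473 and 2601 in BSMC and 1203, 1267 and 1499 in total_SMC (log2 fold change -0.85 ± 0.15, adjusted p = 0.00207), with PASMC above both at 4848, 4116 and 4619. The growth factor Fgf10, by contrast, had 55, 48 and 102 in BSMC and 845, 762 and 716 in total_SMC. That difference was among the larger ones of the list (log2 fold change 3.56 ± 0.29, adjusted p = 2.83e-05). Wnt5a was higher too, at 306 ± 58.8 against 1775 ± 236 (log2 fold change 2.54 ± 0.19, adjusted p = 1.91e-05). Pcp4 was lower, at 105, 69 and 98 against 8, 18 and 20 (log2 fold change -2.56 ± 0.44, adjusted p = 0.00193). Nog was lower at 93, 29 and 56 against 5, 14 and 16 (log2 fold change -2.24 ± 0.59, adjusted p = 0.0156). Nog was not called without BSMC replicate 1 or total_SMC replicate 1.

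Genes of striated and cardiac muscle, which also line the pulmonary veins of the mouse, were lower in total_SMC. Of 23 tested, 18 were lower and 0 higher, with a median log2 fold change of -2.20. Skeletal alpha-actin Acta1 had 132, 216 and 281 in BSMC and 2, 7 and 8 in total_SMC (log2 fold change -5.07 ± 0.52, adjusted p = 0.000106). Cardiac troponin T (Tnnt2) had 1328, 1301 and 1701 against 369, 321 and 415 (log2 fold change -1.96 ± 0.18, adjusted p = 5.23e-05). Both were clearly present in all 3 BSMC libraries, unlike the cardiac myosin Myh6 and titin (Ttn), which were high in BSMC replicate 3 alone. Myh6 had 37, 130 and 1190 in BSMC and 36, 37 and 42 in total_SMC. Ttn had 23, 48 and 1541 against 28, 36 and 32, and neither passed the test (adjusted p = 0.0995 and 0.243). The count of lower genes stayed between 15 and 19 whichever library was left out, and was 16 without BSMC replicate 3. Of other muscle genes outside the list, 3 chosen after their values were seen were lower in all total_SMC libraries: the Z-disc protein Tcap (1732 ± 270 to 534 ± 78.0, adjusted p = 0.000121), calsequestrin Casq1 (968 ± 98.0 to 240 ± 95.1, adjusted p = 0.000526) and the smooth muscle long non-coding RNA Carmn (1115 ± 217 to 278 ± 48.3, adjusted p = 0.000108).

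**Figure D2:**
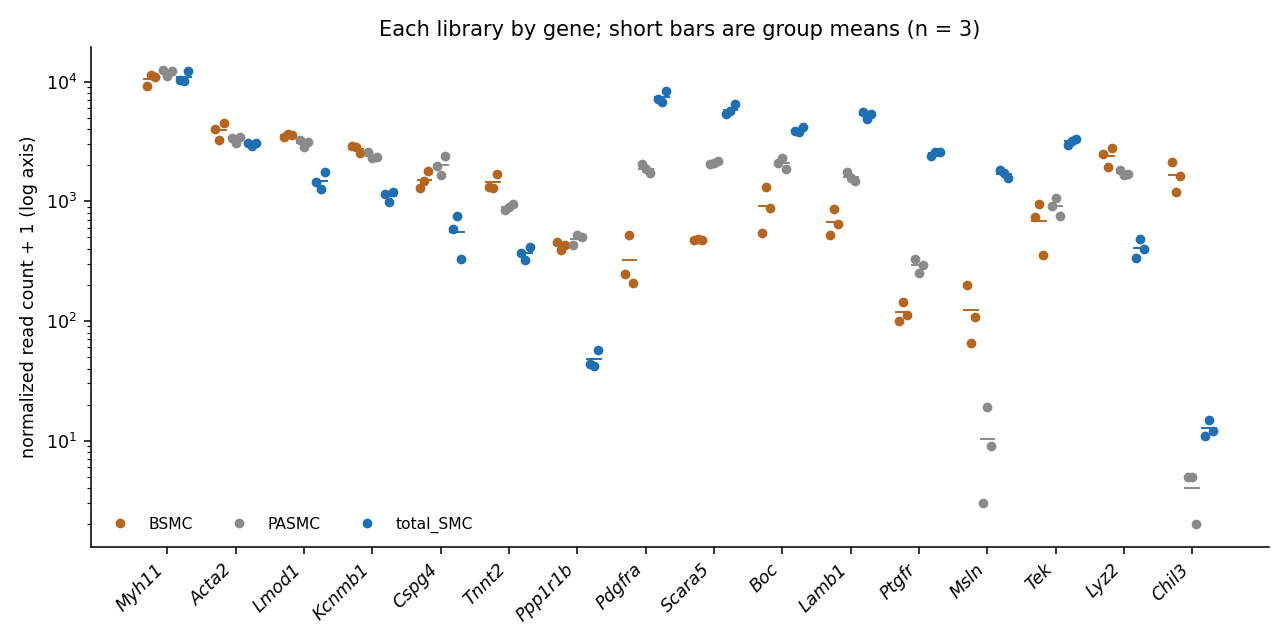
Normalized read count plus 1 of 16 genes on a log axis, with 1 point for each library and a short bar for the mean of each group of 3. Myh11 and Acta2 sit close together in the groups, Lmod1, Kcnmb1, Tnnt2 and Ppp1r1b are lower in total_SMC (blue) than in BSMC (brown), Pdgfra, Scara5, Boc, Lamb1 and Ptgfr are higher, and Chil3 is near the bottom in total_SMC and PASMC (grey).

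Adventitial fibroblast genes were higher in total_SMC, while most alveolar fibroblast genes were not called. Of 20 adventitial fibroblast genes tested, 15 were higher and 0 lower (median log2 fold change 1.5), and their sum was 8280 ± 356 CPM in total_SMC against 3919 ± 517 in BSMC and 5169 ± 425 in PASMC. Pdgfra, the receptor for platelet-derived growth factor A and a defining gene of lung fibroblasts and myofibroblasts (chr5:75312953-75358876, plus strand, mm39), had 247, 520 and 207 in BSMC. It had 7107, 6749 and 8301 in total_SMC, with no overlap (log2 fold change 4.62 ± 0.29, adjusted p = 6.91e-06). The ferritin receptor Scara5 of adventitial fibroblasts had 477, 484 and 473 against 5354, 5661 and 6450 (log2 fold change 3.60 ± 0.13, adjusted p = 1.73e-06). Col14a1, a collagen that associates with fibrils, had 1162, 1108 and 1396 against 8421, 8796 and 9777 (log2 fold change 2.88 ± 0.13, adjusted p = 1.73e-06). The peptidase inhibitor family gene Pi16, a marker of adventitial fibroblasts, stood at 770 ± 136 in BSMC and 3270 ± 233 in total_SMC (adjusted p = 2.0e-05). Among genes outside the lists and chosen after their values were seen, the lipid transporter Abca8a had 145, 265 and 133 in BSMC and 5733, 6153 and 7179 in total_SMC (log2 fold change 5.19 ± 0.25, adjusted p = 1.73e-06). The alarmin Il33 had 329, 289 and 267 against 3496, 2900 and 3253 (log2 fold change 3.44 ± 0.16, adjusted p = 1.73e-06). The alveolar fibroblast list had 5 of 17 genes higher and 1 lower (29.4% and 5.88%, against 21.2% and 15.0% of all genes tested), and 11 were not called. Its median log2 fold change was 0.19. The most abundant members, Itga8 and Npnt, were not called (adjusted p = 0.391 and 0.994). The sodium channel gene Scn7a of this list was higher by 3.80 ± 0.17 on the log2 scale (293 ± 40.6 against 4092 ± 528, adjusted p = 1.73e-06).

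Mesothelial genes, which mark the lining of the pleura, were higher in total_SMC as well. Of 16 tested, 13 were higher and 0 lower (median log2 fold change 2.06), and their sum was 1408 ± 138 CPM against 397 ± 63.7 in BSMC. Mesothelin (Msln) had 200, 64 and 106 in BSMC and 1821, 1713 and 1568 in total_SMC (log2 fold change 3.93 ± 0.34, adjusted p = 4.53e-05). PASMC libraries had 2, 18 and 8. Uroplakin 3b (Upk3b) had 407, 166 and 388 against 2215, 1827 and 1823 (log2 fold change 2.71 ± 0.31, adjusted p = 0.000206), and Lrrn4, a membrane protein, 75, 12 and 13 against 906, 982 and 896 (log2 fold change 5.27 ± 0.58, adjusted p = 0.000156). Mesothelial and adventitial fibroblast genes thus stood higher in the same 3 libraries in which the Hedgehog and matrix genes described below were higher. The part of mesothelium and fibroblasts in those results was not tested.

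Of 29 endothelial genes, 6 were higher and 0 lower (median log2 fold change 0.34), close to the 21.2% of all genes, and the number higher was 10 without BSMC replicate 3. The angiopoietin receptor Tek had 742, 940 and 354 in BSMC and 2945, 3218 and 3332 in total_SMC (log2 fold change 2.33 ± 0.30, adjusted p = 0.000414). The VEGF receptor Kdr stood at 255 ± 34.5 against 1112 ± 70.4 (log2 fold change 2.13 ± 0.17, adjusted p = 2.93e-05). The most abundant members, Plvap and Vwf, were not called. Plvap had 3366, 2716 and 3927 against 2807, 2555 and 2686 (log2 fold change -0.30 ± 0.15, adjusted p = 0.140). Vwf had 2120, 1820 and 2661 against 2525, 3528 and 2604 (log2 fold change 0.39 ± 0.18, adjusted p = 0.115). Airway epithelial genes were higher for 9 of 18 and lower for 1 (50% and 5.56%, against 21.2% and 15.0% of all genes). Without total_SMC replicate 2 only 6 were higher. Their sums were 863 ± 13.5 CPM in BSMC and 952 ± 148 in total_SMC. Alveolar type 2 genes were lower for 8 of 15 and higher for 2 (53.3% and 13.3%, against 15.0% and 21.2% of all genes). Surfactant protein A (Sftpa1) had 1598, 841 and 1401 against 467, 516 and 458 (log2 fold change -1.36 ± 0.23, adjusted p = 0.00186). The protease gene Napsa, of the same cells, was at 387 ± 91.7 against 20.0 ± 8.66 (log2 fold change -4.25 ± 0.36, adjusted p = 3.34e-05).

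Pericyte genes split. Of 18 tested, 4 were higher and 9 lower (22.2% and 50%, against 21.2% and 15.0% of all genes tested). When total_SMC replicate 1 was left out, 5 were lower. Both subunits of the vascular ATP-sensitive potassium channel were higher in total_SMC: the sulphonylurea receptor Abcc9, with 568, 1118 and 563 against 4186, 4159 and 4848 (log2 fold change 2.63 ± 0.25, adjusted p = 6.65e-05), and the pore Kcnj8, at 1102 ± 32.0 against 1918 ± 106 (log2 fold change 0.80 ± 0.13, adjusted p = 0.00138). The lung pericyte gene Cox4i2, a respiratory chain subunit, had 874, 552 and 1144 in BSMC and 183, 224 and 175 in total_SMC (log2 fold change -2.08 ± 0.27, adjusted p = 0.000369).

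Myeloid genes were higher in the BSMC libraries. All 26 myeloid genes tested were lower in total_SMC, with no overlap between groups for any of them and a median log2 fold change of -5.24. Their sum was 2266 ± 600 CPM in BSMC, 109 ± 27.6 in total_SMC and 217 ± 6.23 in PASMC. The macrophage chitinase-like protein Chil3 had 2118, 1203 and 1614 in BSMC and 10, 14 and 11 in total_SMC (log2 fold change -7.00 ± 0.28, adjusted p = 1.73e-06). The leukocyte phosphatase CD45 (Ptprc) had 760, 569 and 391 against 0, 4 and 3 (log2 fold change -7.67 ± 0.60, adjusted p = 2.46e-05). The signalling adaptor Tyrobp had 922, 484 and 910 against 5, 7 and 3 (log2 fold change -7.01 ± 0.39, adjusted p = 3.83e-06). Interleukin-1 beta (Il1b) stood at 790, 492 and 632 against 3, 2 and 2 (log2 fold change -7.57 ± 0.36, adjusted p = 1.73e-06). Igsf6, an immunoglobulin superfamily gene of myeloid cells, had 298, 216 and 246 in BSMC and 0 in all 3 total_SMC libraries, at least 88.1-fold lower when each total_SMC library is set to a floor of 3 counts. Lysozyme Lyz2 was lower by less, at 2465, 1939 and 2798 against 333, 485 and 395 (log2 fold change -2.57 ± 0.20, adjusted p = 1.91e-05).

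Most other blood-cell lists were lower as well. Of 15 T and NK cell genes, 13 were lower in total_SMC and 1 higher, with Cd3e at 74, 52 and 50 against 1, 0 and 0 (log2 fold change -5.54 ± 0.63, adjusted p = 0.00018). Of 16 B and plasma cell genes, 10 were lower and 0 higher, but their sum remained at 1110 ± 20.9 CPM in total_SMC against 1595 ± 255 in BSMC. Of 10 platelet genes 4 were lower, led by platelet factor 4 (Pf4) at 481, 213 and 468 against 29, 45 and 30 (adjusted p = 0.000138). Of 7 erythroid genes 5 were lower, with 3 without BSMC replicate 1 and 2 without total_SMC replicate 3. The platelet and erythroid sums were 64.8 ± 5.64 and 47.2 ± 6.03 CPM in total_SMC against 180 ± 37.4 and 107 ± 27.8 in BSMC, lower but not at 0. Of 11 mast cell and basophil genes only 3 were tested, and of these 2 were called higher and 0 lower. The 2 were the receptor Kit (277, 698 and 422 against 1151, 1141 and 1134, adjusted p = 0.00496) and the transcription factor Gata2 (473, 459 and 485 against 720, 677 and 598, adjusted p = 0.0397). Only 1 of the 3 was called when any library other than BSMC replicate 2 was left out. The part of blood-cell RNA in other differences was not tested.

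**Figure D3:**
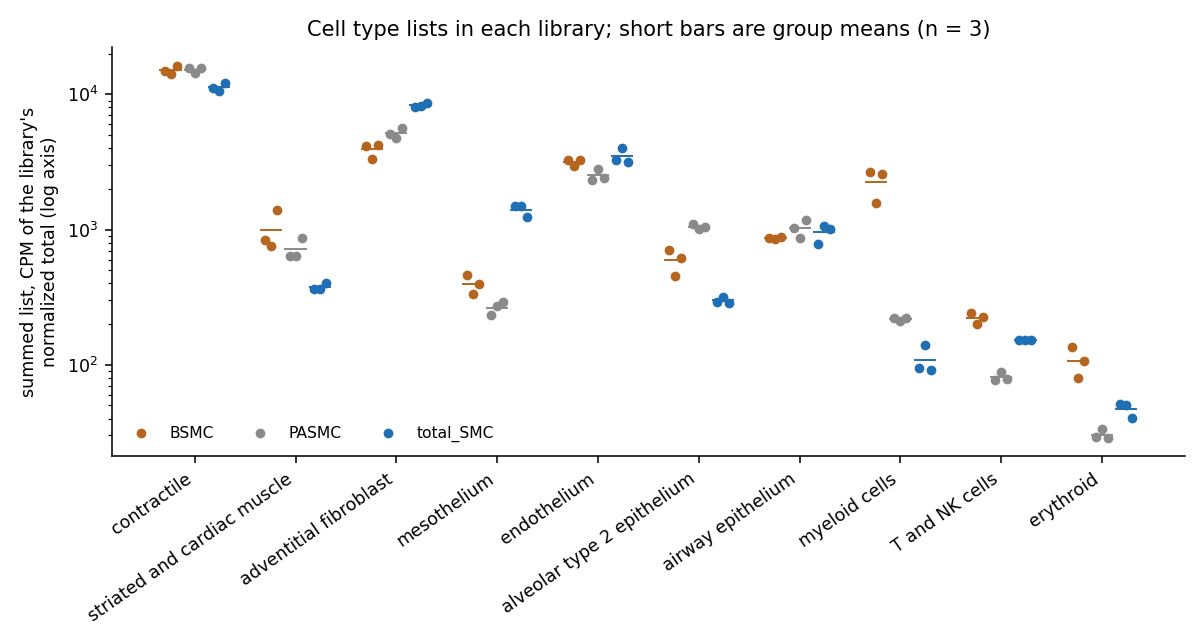
Summed normalized read counts of 10 lists of marker genes, in CPM of each library's total, on a log axis, with 1 point for each library and a bar for each group mean. The myeloid sum is near 2266 in BSMC and 109 in total_SMC, and the mesothelial and adventitial fibroblast sums are higher in total_SMC in every library.

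The Hedgehog pathway was higher in total_SMC at the level of receptors, co-receptors and transcription factors and lower for one ligand. Of 15 members tested, 12 were higher and 1 lower (median log2 fold change 1.4). The ligand Indian hedgehog (Ihh) had 220, 172 and 200 in BSMC and 11, 11 and 39 in total_SMC (log2 fold change -3.46 ± 0.48, adjusted p = 0.000578). The receptor Ptch1, itself a target of the pathway, had 591, 330 and 771 against 1671, 2085 and 1922 (log2 fold change 1.82 ± 0.27, adjusted p = 0.000932). Of the co-receptors, Boc had 546, 1312 and 885 against 3832, 3797 and 4205 (log2 fold change 2.20 ± 0.26, adjusted p = 0.000273) and Cdon 124, 76 and 118 against 532, 642 and 404 (log2 fold change 2.31 ± 0.27, adjusted p = 0.00021).

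All 3 Gli transcription factors were higher. Gli1, the best known direct target of the pathway, had 167, 196 and 200 in BSMC and 521, 620 and 518 in total_SMC (log2 fold change 1.55 ± 0.19, adjusted p = 0.000273), and Gli3 stood at 84.0 ± 33.2 against 285 ± 20.2 (log2 fold change 1.83 ± 0.32, adjusted p = 0.00193). Hhip, a decoy receptor that binds Hedgehog ligands and an airway smooth muscle marker, had 3078, 3491 and 2913 against 3910, 4560 and 4353, with PASMC at 7579, 7798 and 7414. It was called higher as deposited (log2 fold change 0.44 ± 0.13, adjusted p = 0.0228), but not without BSMC replicate 1 (adjusted p = 0.0705), BSMC replicate 3 (0.0551), total_SMC replicate 2 (0.0877) or total_SMC replicate 3 (0.0841), and its sign turned with the exon-length trend removed (-0.059, adjusted p = 0.667). The letters TGGGTGGTC, the core of the Gli motif, were in 0 of 12 Hedgehog promoter windows of the same kind, on either strand, against 0.253% of all windows. Windows were matched to 12 of the 15 genes tested, and Gli1 and Boc were not among them. With letters this rare, 0 in so few windows was nearly certain beforehand and says nothing about the list.

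Wnt genes were more often higher than lower. Of 39 tested, 17 were higher and 6 lower (median log2 fold change 0.60), the lower ones numbering 3 without any one of the total_SMC libraries. The receptor Fzd4 had 329, 368 and 239 in BSMC and 2734, 2764 and 3149 in total_SMC (log2 fold change 3.22 ± 0.19, adjusted p = 4.15e-06). The secreted Wnt-binding protein Sfrp4 was higher, at 170, 230 and 148 against 1359, 1341 and 1273 (log2 fold change 2.88 ± 0.20, adjusted p = 1.13e-05), while its relative Sfrp2 was lower, at 2429, 2162 and 2386 against 1139, 1318 and 1113 (log2 fold change -0.97 ± 0.14, adjusted p = 0.000623). Nkd1, a feedback inhibitor of the pathway, was lower too (3153 ± 188 against 1715 ± 140, log2 fold change -0.88 ± 0.13, adjusted p = 0.000741).

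Members of the TGF-beta and BMP pathway went both ways, with 17 of 44 higher and 13 lower (38.6% and 29.5%, against 21.2% and 15.0% of all genes tested). Their median log2 fold change was 0.28. The higher count was 11 without BSMC replicate 1 or total_SMC replicate 3, and the lower count was 8 without BSMC replicate 1. Gdf10, a BMP-like ligand, had 589, 383 and 484 in BSMC and 3218, 3409 and 3570 in total_SMC (log2 fold change 2.83 ± 0.17, adjusted p = 5.66e-06). Tgfb1 itself was lower, at 599, 491 and 524 against 201, 224 and 187 (log2 fold change -1.39 ± 0.19, adjusted p = 0.00048), as was the BMP-responsive repressor Id4 (3481 ± 381 against 1603 ± 217, adjusted p = 0.00046). Of 26 PDGF, FGF and IGF ligands and receptors, 11 were higher and 4 lower (42.3% and 15.4%, against 21.2% and 15.0% of all genes). The ligand Pdgfa fell where its receptor Pdgfra rose: Pdgfa had 1541, 1127 and 1709 in BSMC and 588, 540 and 517 in total_SMC (log2 fold change -1.39 ± 0.18, adjusted p = 0.000446). Insulin-like growth factor 1 (Igf1) was higher at 882 ± 112 against 2711 ± 218 (log2 fold change 1.62 ± 0.15, adjusted p = 5.40e-05), while its receptor Igf1r was lower at 773 ± 78.7 against 332 ± 46.0 (log2 fold change -1.22 ± 0.18, adjusted p = 0.000825).

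Basement membrane genes were higher in total_SMC for 18 of 23 members and lower for 1 (median log2 fold change 1.51), with sums of 7130 ± 163 CPM in total_SMC against 3896 ± 471 in BSMC. Laminin beta 1 (Lamb1) had 522, 858 and 649 in BSMC and 5588, 4834 and 5347 in total_SMC (log2 fold change 2.98 ± 0.18, adjusted p = 5.66e-06). Laminin gamma 1 (Lamc1), its partner in many laminin trimers, had 1258, 1523 and 1264 against 6393, 5683 and 6766 (log2 fold change 2.22 ± 0.13, adjusted p = 5.33e-06). Nidogen 1 (Nid1), which links laminin to type IV collagen, had 807, 1393 and 755 against 5273, 6004 and 6013 (log2 fold change 2.60 ± 0.22, adjusted p = 3.47e-05). These genes have long exons (median 8039 bases), and with the exon-length trend described below removed, 12 members were higher and 2 lower (median 1.00).

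Collagens of fibrils and those bound to them were higher for 11 of 19 and lower for 0, the higher count being 7 without total_SMC replicate 1 or 3. The most abundant of them did not differ beyond the spread: Col3a1 had 8691, 8270 and 10571 in BSMC and 9335, 9419 and 10677 in total_SMC (adjusted p = 0.526). Collagen VI alpha 3 (Col6a3) was higher, at 1644, 1367 and 1902 against 3973, 4403 and 4244 (log2 fold change 1.37 ± 0.15, adjusted p = 0.000129). Of 22 elastic fibre genes, 9 were higher and 0 lower (40.9% higher, against 21.2% of all genes). The microfibril protein fibrillin 1 (Fbn1) had 1806, 1647 and 1700 against 8384, 8219 and 9736 (log2 fold change 2.35 ± 0.12, adjusted p = 2.31e-06). Axon guidance genes, which also pattern vessels and mesenchyme, were higher for 18 of 37 and lower for 3 (median log2 fold change 0.83), the lower count being 1 without total_SMC replicate 1 or 3. The ligand Slit2 had 42, 80 and 79 in BSMC and 978, 753 and 1013 in total_SMC (log2 fold change 3.80 ± 0.28, adjusted p = 1.74e-05), and its receptor Robo2 53, 41 and 22 against 334, 453 and 502 (log2 fold change 3.51 ± 0.35, adjusted p = 8.57e-05).

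Receptors that contract or relax muscle differed in both directions. Of 44 tested, 14 were higher and 9 lower (31.8% and 20.5%, against 21.2% and 15.0% of all genes tested). The median log2 fold change was 0.36. The prostaglandin F receptor Ptgfr, a contractile receptor, had 98, 144 and 111 in BSMC and 2381, 2562 and 2584 in total_SMC. It was the receptor of the list with the largest difference (log2 fold change 4.42 ± 0.19, adjusted p = 1.73e-06), with PASMC at 331, 252 and 292. Both bradykinin receptors were higher: the inducible Bdkrb1 at 98, 64 and 69 against 1528, 1130 and 1283 (log2 fold change 4.09 ± 0.23, adjusted p = 3.76e-06), and the constitutive Bdkrb2 at 64, 67 and 24 against 465, 355 and 413 (log2 fold change 3.09 ± 0.38, adjusted p = 0.00031). Vipr2, a receptor for the relaxant vasoactive intestinal peptide, had 4, 8 and 28 against 193, 171 and 216 (log2 fold change 4.15 ± 0.58, adjusted p = 0.000627). Lower were the alpha-1D adrenergic receptor Adra1d, at 598, 619 and 693 against 90, 79 and 115 (log2 fold change -2.75 ± 0.22, adjusted p = 2.26e-05), the thromboxane receptor Tbxa2r, at 1207, 1239 and 1818 against 644, 583 and 569 (log2 fold change -1.22 ± 0.19, adjusted p = 0.000991), and the ATP-gated channel P2rx1, at 1988, 2227 and 2707 against 1005, 718 and 1270 (log2 fold change -1.24 ± 0.21, adjusted p = 0.00205). The endothelin A receptor Ednra had 2291, 3112 and 2359 against 2987, 2800 and 3219, and these overlapped (adjusted p = 0.248). It was called only without BSMC replicate 2 (adjusted p = 0.0255). Prostaglandin synthesis genes, chosen after their values were seen, were higher: cyclooxygenase 2 (Ptgs2) at 74, 102 and 26 against 1227, 738 and 581 (log2 fold change 3.77 ± 0.47, adjusted p = 0.000323), and prostaglandin E synthase (Ptges) at 173, 131 and 118 against 1500, 1206 and 1519 (log2 fold change 3.33 ± 0.20, adjusted p = 5.61e-06).

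Of 31 potassium channel genes, 8 were higher and 9 lower (25.8% and 29.0%, against 21.2% and 15.0% of all genes tested). The lower count was 5 without total_SMC replicate 2. Kcnk3, the acid-sensitive channel TASK-1 of pulmonary arterial muscle, had 4040, 2974 and 4413 in BSMC and 1725, 1308 and 1537 in total_SMC (log2 fold change -1.31 ± 0.18, adjusted p = 0.000488). The subunit Kcnab1 was lower as well, at 1476 ± 355 against 453 ± 57.5 (log2 fold change -1.68 ± 0.20, adjusted p = 0.00024). Of 38 calcium-handling and chloride channel genes, 8 were higher and 12 lower (21.1% and 31.6%, against 21.2% and 15.0% of all genes tested). The higher count was 12 without BSMC replicate 3. The lower count was 8 with the replicate block and 5 on implied reads without scaling, and the median log2 fold change turned from 0.18 to -0.15 with the exon-length trend removed. With single libraries left out, the lower count was 7 without BSMC replicate 1, total_SMC replicate 1 or total_SMC replicate 2, and 6 without total_SMC replicate 3. The pore of the L-type calcium channel, Cacna1c, had 865, 466 and 849 in BSMC and 205, 228 and 230 in total_SMC (log2 fold change -1.66 ± 0.25, adjusted p = 0.000941). The mechanosensitive channel Piezo1 was higher, at 88, 96 and 146 against 457, 628 and 463 (log2 fold change 2.24 ± 0.26, adjusted p = 0.000189), as was polycystin 2 (Pkd2), a calcium-permeable channel, at 1180, 1804 and 988 against 4122, 3888 and 4788 (log2 fold change 1.73 ± 0.21, adjusted p = 0.000277).

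Complement genes differed in both directions. Of 17 tested, 9 were higher and 7 lower in total_SMC, with a median log2 fold change of 0.54 and a mean of -1.06. The higher ones included C3 (1700, 1951 and 1506 against 8919, 8974 and 10172, log2 fold change 2.45 ± 0.13, adjusted p = 3.52e-06) and the terminal component C7 (551, 713 and 349 against 4751, 4404 and 5304, log2 fold change 3.22 ± 0.23, adjusted p = 1.64e-05). The lower ones included the 3 chains of C1q, which macrophages make: C1qa had 798, 336 and 968 against 5, 5 and 3 (log2 fold change -6.93 ± 0.44, adjusted p = 6.42e-06).

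Ifi202b, a DNA-binding member of the interferon-inducible p200 family (chr1:173790134-173810310, minus strand, mm39), was at 0 in all 3 BSMC and all 3 PASMC libraries. It had 295, 198 and 378 in total_SMC, at least 88.2-fold higher with each BSMC library set to the floor of 3 counts (adjusted p = 5.33e-06). Of 12 members of the family tested, 5 were higher and 2 lower (41.7% and 16.7%, against 21.2% and 15.0% of all genes). Ifi205 had 95, 58 and 59 against 416, 572 and 455 (log2 fold change 2.77 ± 0.27, adjusted p = 7.02e-05), and Ifi209 was lower at 51, 105 and 82 against 0, 13 and 6 (log2 fold change -4.06 ± 0.88, adjusted p = 0.00632). These genes are related members of one family, so reads may be shared between them. In the wider interferon response list 13 of 32 were higher and 1 lower, but only 3 were higher without total_SMC replicate 2 or 3.

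**Figure D4:**
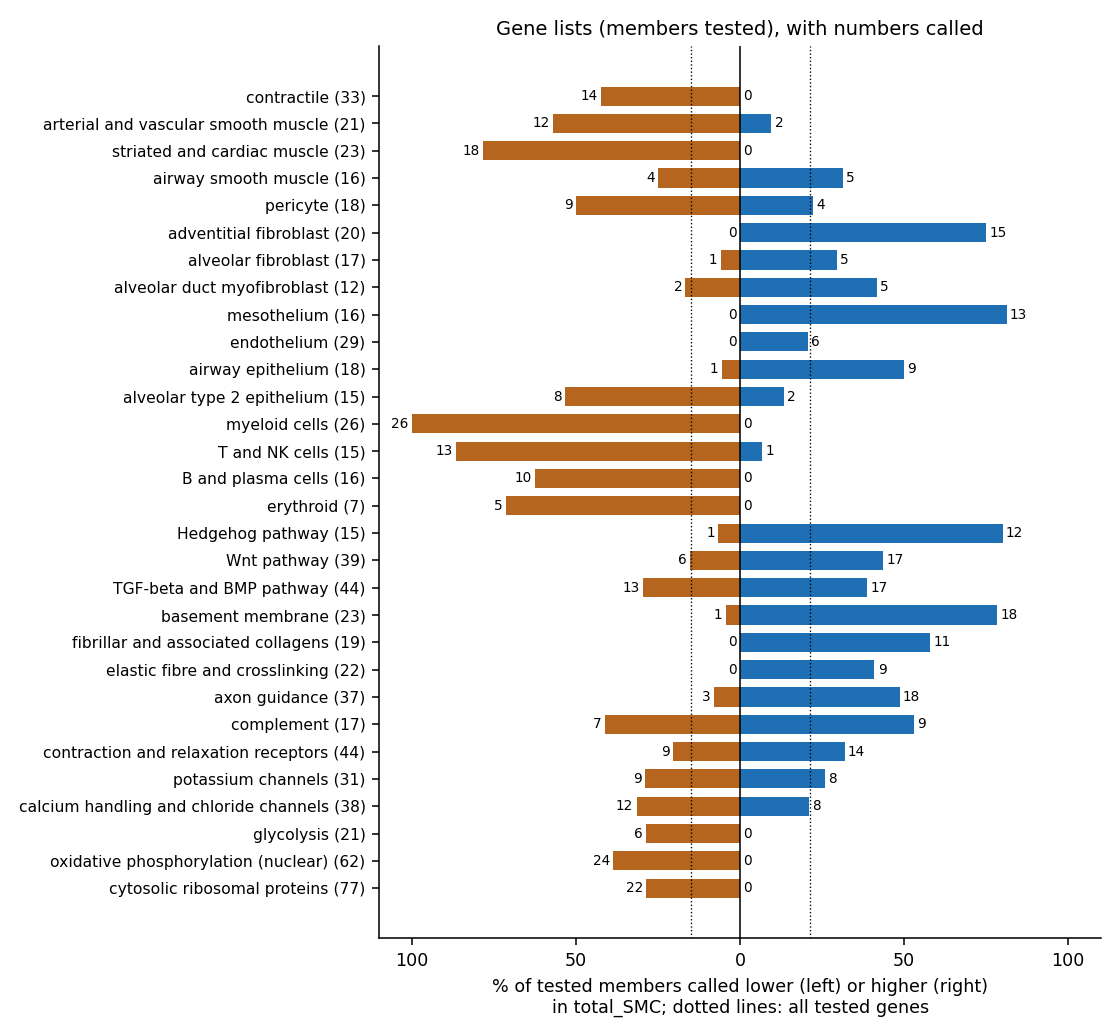
Share of the tested members of 30 gene lists called lower (left, brown) or higher (right, blue) in total_SMC, with the numbers called beside the bars and, in brackets, the numbers tested. The dotted lines are the shares over all genes, 15.0% lower and 21.2% higher, and the myeloid list reaches 26 of 26 on the lower side.

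A minority of ribosomal and respiratory genes was called lower in total_SMC, and the counts varied widely with the processing. Of 77 cytosolic ribosomal protein genes, 22 were lower and 0 higher (median log2 fold change -0.52), and of 62 nuclear genes of oxidative phosphorylation 24 were lower and 0 higher (median -0.51). Those called lower were 28.6% and 38.7% of the lists, against 15.0% of all genes tested. Both lists hold short genes, with medians of 1770 and 1560 exon bases. These counts turned on single libraries: without BSMC replicate 2 they were 71 and 54, without BSMC replicate 1 they were 2 and 4, and without BSMC replicate 3 they were 5 and 4. Leaving out total_SMC replicates 1, 2 and 3 gave 4, 6 and 1 ribosomal and 3, 2 and 1 respiratory genes. They also turned on the scaling and the fit, with 54 and 50 after total scaling, 2 and 1 on implied reads without scaling, and 6 and 13 with the replicate block. The medians were below 0 in each of these 3 fits. Rpl35a, a ribosomal protein, had 217, 140 and 205 in BSMC and 96, 72 and 71 in total_SMC (log2 fold change -1.21 ± 0.28, adjusted p = 0.00847). Of 21 glycolysis genes 6 were lower and 0 higher (28.6% lower, against 15.0% of all genes). Without BSMC replicate 2, 11 were lower and 3 higher, and without total_SMC replicate 3, 3 were lower. The muscle glucose transporter Slc2a4 had 905, 1311 and 1123 against 381, 402 and 514 (log2 fold change -1.36 ± 0.20, adjusted p = 0.000716).

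The length gradient ran through all genes. With the tested genes in 5 equal groups by exon length, from the shortest group (54 to 2300 bases) to the longest (7355 to 123179 bases), the median log2 fold change went from -0.43 to 0.51. The share of genes called higher went from 7.88% to 38.2%, and that called lower from 27.1% to 7.74%. In the shortest group BSMC replicates 1 and 3 lay 0.34 and 0.39 above the mean of the 6 libraries on the log2 scale, and replicate 2 lay 0.03 below it. With the gradient removed, 4798 of 14785 genes were called, 54.4% of them higher. The lower counts of ribosomal and respiratory genes were then 5 each, with medians of -0.09 and -0.04. The basement membrane median went from 1.51 to 1.00, with 12 genes higher and 2 lower. Integrin and focal adhesion genes went from 9 higher and 4 lower to 5 higher and 10 lower, and their median from 0.12 to -0.15. Without that removal, 5 of them were higher when total_SMC replicate 1 or 2 was left out. The fibrillar collagen median went from 0.89 to 0.48. Lists whose counts moved little included the contractile (17 lower), striated muscle (17 lower), adventitial fibroblast (16 higher), mesothelial (13 higher) and myeloid lists (25 lower), and Hedgehog genes stood at 10 higher and 1 lower. Whether the gradient belongs to the cells or to the RNA and its preparation cannot be told apart with these libraries.

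**Figure D5:**
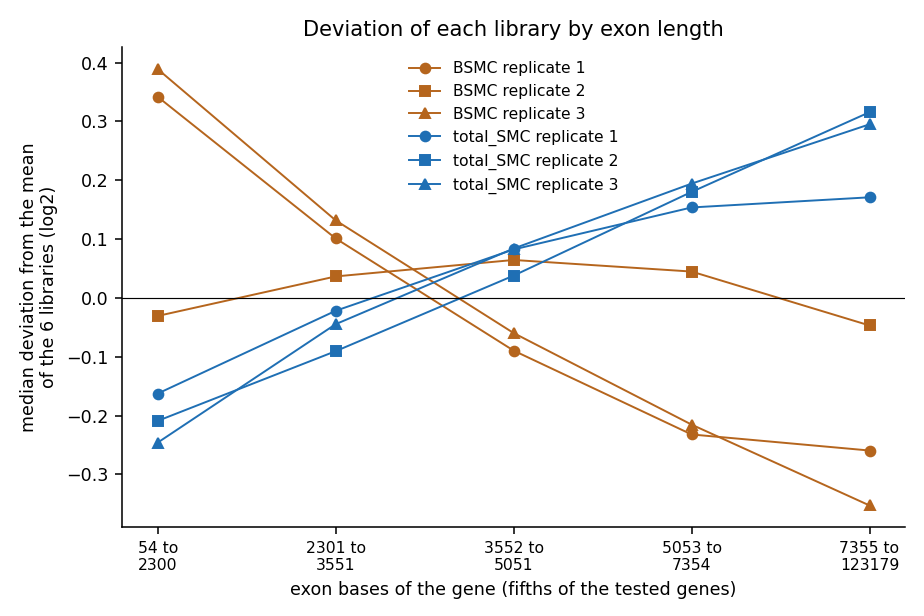
Median deviation of each of the 6 libraries from their mean (log2) in 5 equal groups of tested genes ordered by exon bases, shortest on the left. BSMC replicates 1 and 3 slope downward from 0.34 and 0.39, BSMC replicate 2 stays close to 0, and the total_SMC replicates slope upward.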

How the data were processed

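Values are the deposited gene table of all 9 libraries, whole-number read counts that the authors had normalized and rounded, treated here as a score and not as raw counts. The submitters' processing notes name the genome build mm39 and, in no order and with no settings, featureCounts 2.0.4, DESeq2 1.36.0, Picard 3.1.1, STAR 2.7.11a and Trimmomatic 0.39; strand and multi-mapping handling are not given in the sources used here. Gene coordinates are those of the table.

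Each library's scaling factor was inferred from the gaps that rounding leaves between values, which gave the implied reads (6.39 to 9.90 M in the 6 libraries compared). Implied reads are inferred, so no count model was run. The contrast was fitted with limma 3.58.1 in R 4.3.3 on log2(value + 1), with trended and robust empirical Bayes, on the 6 libraries alone; fold changes are on this scale and understate those of low genes. Genes below 10 in more than 3 of these libraries were left out, and p-values were adjusted over all 15019 genes tested (Benjamini-Hochberg, threshold 0.05). A permutation test of 3 against 3 libraries cannot go below an exact two-sided p of 0.10. Replicate numbers were not used as a block, since libraries of one number did not deviate together. Lists give summed values as CPM, scaled to a library total of 1000000. A floor of 3 counts per library was used for genes at 0 throughout a group.

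The contrast, its 49 gene lists and their members were chosen with earlier results of these data known. Named genes are those of the genotypes and Myh11, the 10 largest called changes each way (non-overlapping, higher mean of at least 100, no predicted genes, pseudogenes or receptor segments), and per list up to 4 called members each way (mean of at least 50) and the 2 most abundant; the text names part of them, and a few are not reported here. Tagln, Gli1, Ptch1, Lamc1, Bdkrb2, Pi16, Tbxa2r, Myh6, Ttn, Chrm3, the genes beside the promoter windows and those so marked were chosen after their values were seen. Exon lengths are from GENCODE vM21 on GRCm38, matched by gene identifier for 98.4% of tested genes, and promoter windows from RefSeq (GRCm38.p6).

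Alternatives were other pseudocounts, filters, scalings, limma settings, a 9-library fit, a replicate block, each library left out, and removal of the exon-length trend by library, the last chosen after seeing the data.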

Additional observations from a re-analysis of the deposited data

How the results depend on the processing

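Across 19 alternatives, 241 of the 306 called genes named here kept their call in all of those in which they were tested. Of 6820 values of named genes, 6385 kept direction and call, 324 lost it, 110 gained it and 1 reversed: Hhip, at -0.059 with the exon-length trend removed. Genes called lower numbered 3379 after quantile normalization, 3384 after total scaling and 1140 on implied reads, against 2248. With each library left out in turn, 3123 to 7609 genes were called, 2567 to 4269 by at least 2-fold, 1917 to 4249 higher and 1206 to 3360 lower, and 8276 to 10321 did not overlap. Fits without total_SMC replicate 1, 2 or 3 called 3501, 3466 and 3123 genes, with 2064 and 1917 higher without replicate 2 or 3, and 1357, 1402 and 1206 lower; these fits have fewer samples. The cause of the other shifts was not tested.

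With the replicate number as a block 4857 genes were called. Numbers did not mark pairs: correlations of same-numbered deviations were -0.04, -0.05 and -0.06.

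Precision is limited by 3 libraries a group and by the wider BSMC spread (median log2 SD 0.35 against 0.17). Genes that reached 10 in fewer than 3 of the 6 libraries were not tested, and for the 221 genes at 1 or more implied reads per exonic base a difference may be compressed.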

Other observations

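Immunoglobulin genes, chosen after their values were seen, differed by isotype. The joining chain Jchain of plasma cells had 1339, 553 and 820 in BSMC, 965, 1163 and 926 in total_SMC and 0 in all PASMC libraries, and the immunoglobulin A constant gene Igha had 2220, 1579 and 2164 against 1555, 1523 and 1601. The BSMC and total_SMC values of Jchain overlapped (adjusted p = 0.485). The immunoglobulin G2b constant gene Ighg2b had 15, 10 and 12 in BSMC and 883, 948 and 523 in total_SMC (log2 fold change 5.85 ± 0.32, adjusted p = 3.57e-06). The M constant gene Ighm went the other way, at 782, 624 and 858 against 209, 369 and 260 (log2 fold change -1.46 ± 0.24, adjusted p = 0.00138). Of 50 heavy and light chain variable segments tested, 30 were higher and 11 lower in total_SMC, and these segments share sequence, so reads may be split between them.

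Long non-coding RNAs were more often lower than higher. Of 1018 tested (27.0% called), 210 were lower and 65 higher in total_SMC, against 1971 and 3059 of 13592 protein-coding genes (37.0% called). In the shortest exon-length group of all genes, 27.1% were lower and 7.88% higher. The part of the length gradient in this split was not tested. Malat1, an abundant nuclear RNA, had 1628, 1284 and 1733 in BSMC and 813, 982 and 761 in total_SMC (log2 fold change -0.86 ± 0.17, adjusted p = 0.0042). Norad, a long RNA activated by DNA damage, was higher, at 373, 445 and 290 against 932, 910 and 1084 (log2 fold change 1.42 ± 0.20, adjusted p = 0.000575). Many such RNAs overlap or run antisense to other genes, and their reads cannot be told apart without strand.

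Clock genes were called for 7 of 19, 5 higher and 2 lower (26.3% and 10.5%), against 21.2% and 15.0% of all genes tested. The higher count was 3 without total_SMC replicate 3, and the lower count 1 without total_SMC replicate 1 or 3. Clock itself, a core activator, had 551, 506 and 324 in BSMC and 991, 1246 and 1299 in total_SMC (log2 fold change 1.38 ± 0.22, adjusted p = 0.00136), while the output factor Dbp had 692, 535 and 750 against 271, 347 and 236 (log2 fold change -1.21 ± 0.21, adjusted p = 0.00216). The sampling hour is not given in the sources used here. Lipid genes were called for 8 of 15, 4 each way (26.7% in each direction). The higher count was 2 without total_SMC replicate 2. Fatty acid synthase Fasn had 412, 358 and 391 against 996, 1021 and 1020 (log2 fold change 1.39 ± 0.15, adjusted p = 0.000166), and the lipid droplet protein Plin4 713, 923 and 791 against 282, 233 and 335 (log2 fold change -1.52 ± 0.20, adjusted p = 0.000413).

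Among neural and endocrine genes, chosen in part after their values were seen, the neurturin gene Nrtn had 1285, 900 and 1337 in BSMC and 348, 251 and 386 in total_SMC (log2 fold change -1.84 ± 0.22, adjusted p = 0.000277). Gfra4, a receptor of the same ligand family, had 1291, 1068 and 1575 against 364, 349 and 395 (log2 fold change -1.81 ± 0.18, adjusted p = 9.61e-05). The Wnt antagonist Sost had 1332, 1507 and 1291 against 153, 333 and 537 (log2 fold change -2.18 ± 0.37, adjusted p = 0.00182). Higher in total_SMC were the retinoic acid-producing enzyme Aldh1a3, at 31, 51 and 32 against 975, 956 and 932 (log2 fold change 4.65 ± 0.25, adjusted p = 3.32e-06), and the thyroid hormone-activating enzyme Dio2, at 21, 9 and 35 against 670, 605 and 536 (log2 fold change 4.92 ± 0.42, adjusted p = 4.13e-05). Aldh1a2, a related enzyme of mesothelium, was higher by less (884 ± 29.5 against 1891 ± 141, log2 fold change 1.09 ± 0.14, adjusted p = 0.000311).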
